A study of Sus scrofa with 12 samples.

Results

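The genes described here are those of cell division and DNA replication in the long back muscle of the pig, followed from the fetus to 120 days after birth. They were taken by name from the array's probe annotation. A probe set was a member if its single gene symbol began with MCM, CDC, CDK, CCNA, CCNB, CCND, CCNE, CENP, KIF, AURK, PLK or BUB, or was TOP2A, FEN1, PCNA, RRM1, RRM2, TYMS or RBL2, with CDC42 and its relatives left out. This gave 96 probe sets for 71 gene symbols, of 6765 symbols in all. For each symbol the probe set with the highest mean over the 12 arrays was used, and 18 symbols had several to choose from. Because the rule goes by the start of a name, it also took in kinases, motors and chaperones known mainly from other roles, and these are described apart.

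A cell that is about to divide loads the MCM helicase onto its replication origins, opens and copies its DNA, and then uses cyclins, cyclin-dependent kinases (CDKs), Aurora and Polo kinases, kinetochores and motor proteins to separate the chromosomes. Many of these transcripts are made mainly in cycling cells, under the E2F factors in G1 and S phase and under MYB and FOXM1 factors before mitosis, and CDK inhibitors and pocket proteins such as RBL2 hold cells out of the cycle. In skeletal muscle, myoblasts divide and then leave the cycle for good as they fuse into fibres. Satellite cells, fibroblasts, vessel cells and blood cells of the tissue can still divide.

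RNA abundance was measured in the longissimus dorsi of Meishan pigs, a Chinese breed, on Affymetrix porcine arrays. Fetal muscle was taken at 65 days post coitus (dpc), and muscle after birth at 3, 60 and 120 days of age, so that 4 stages had 3 arrays each. A change from 65 dpc to 3 days of age is called a change across birth. No stage between them was sampled, so such a change cannot be dated to before, at or after birth. The samples are described as biological replicates, and the fetuses of a sow were treated as 1 individual. The labels name no treatment of the animals beyond commercial feeding, and no genotype other than the breed. In whole muscle, fewer dividing cells and less RNA per cell cannot be told apart. The median intensity lay between 49.1 and 52.6 on the 12 arrays. Fibre markers such as MYH2, RYR1 and CKM were measured at every stage, and the summed intensity of 11 fibre markers was 36314 to 49575 in the fetus, 65740.5 to 68526 at 3 days, 60751 to 68765 at 60 days and 70435 to 72335 at 120 days. Intensities were compared as log2(intensity + 21), which makes the changes of dim probe sets smaller than their ratios. A probe set was tested if it passed the 40th percentile of its own array on at least 3 arrays, and 67 of the 71 members did. CDKN2B (intensities of 5.29 to 14.0), KIF5C (13.4 to 24.7), CDC25C (17.4 to 31.3) and CENPO (21.8 to 37.9) did not. Changes were tested with limma over all 16166 tested probe sets and called at an adjusted p under 0.05.

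Across birth, transcripts of some replication proteins fell (MCM2, MCM3, CDC45, TOP2A, RRM2 and TYMS). Those of the cyclins CCNA2, CCNB1, CCNB2 and CCND2 and of the kinetochore proteins CENPH and CENPI fell too, while a smaller and mixed set rose. Of the 67 tested members 24 were called lower at 3 days than at 65 dpc (35.8%, beside 22.6% of all tested probe sets). Another 13 were called higher (19.4%, beside 20.3% of all tested probe sets), so the higher share was near the background. The median log2 change was -0.14 over the members and -4.50e-04 over all tested probe sets. On none of the 37 called members did a 3-day array overlap the fetal arrays. These members were picked by their call on the same arrays, and overlap was not counted over all called probe sets. The median change was -1.0 over the 24 lower members, 12 of which changed at least 2-fold, and 0.82 over the 13 higher members, 5 of which did. Of all tested probe sets 9.76% were called lower and 5.98% higher with at least a 2-fold change. Calls for 19 of the 24 lower and 11 of the 13 higher members held whichever of the 12 arrays was left out. By the F test over all stages 42 of the 67 members (62.7%) were called, beside 46.9% of all tested probe sets. The highest stage mean of these 42 was in the fetus for 27, at 3 days for 8, at 60 days for 1 and at 120 days for 6. Over all 67 tested members these numbers were 31 (46.3%), 17, 7 and 12. Peak stages were not counted over all tested probe sets.

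**Figure D1:**
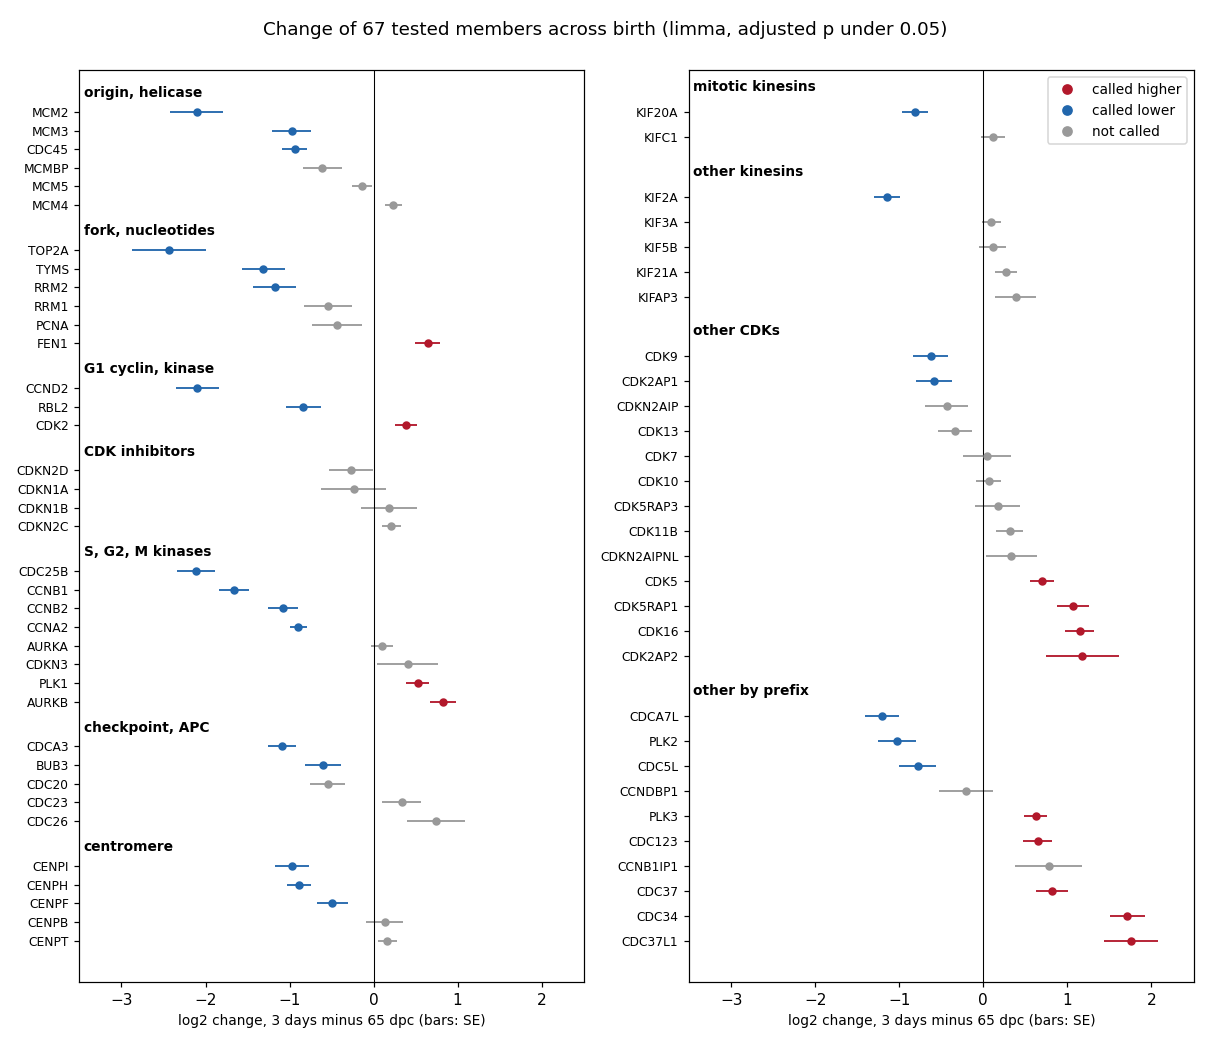
Log2 change of the 67 tested members, 3 days minus 65 dpc, with bars for the SE of the limma fit. Members are grouped by role, and colours mark the 13 called higher, the 24 called lower and the 30 not called. TOP2A (-2.43) lies farthest to the left, and CDC37L1 (1.76) farthest to the right.

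Of 6 tested members that load, form or activate the replicative helicase, 3 were lower at 3 days (50%, beside 22.6% of all tested probe sets). In this group 0 were higher (beside 20.3%), and the median log2 change was -0.77. MCM2, a subunit of the ring that unwinds DNA, had intensities of 240.3, 373 and 242 in the fetus, 75.2, 47.9 and 30.2 at 3 days, 98.5, 29.3 and 33.4 at 60 days and 42.0, 32.2 and 38.9 at 120 days. All fetal arrays lay above all 9 later arrays, and 60 days replicate 1 stood above the other later arrays. The log2 change of MCM2 across birth was -2.11 ± 0.31 (SE, adjusted p = 3.24e-04). MCM3, another subunit, had 73.0, 109 and 48.2 in the fetus, 37.5, 35.4 and 12.9 at 3 days, 22.0, 16.0 and 21.9 at 60 days and 19.4, 20.3 and 27.7 at 120 days, and its change was -0.97 ± 0.23 (SE, adjusted p = 0.0055). CDC45, which joins the ring to form the active helicase, had 117, 116 and 72.9 in the fetus, 43.1, 47.5 and 36.3 at 3 days, 43.1, 41.8 and 39.5 at 60 days and 47.2, 37.6 and 40.6 at 120 days, a change of -0.94 ± 0.15 (SE, adjusted p = 4.69e-04). For both MCM3 and CDC45 every fetal array was above every later array. The other ring subunits in the annotation were not called across birth. MCM5 had 115, 113 and 100.7 in the fetus, 108, 91.1 and 94.5 at 3 days, 72.3, 69.0 and 75.0 at 60 days and 68.3, 73.4 and 85.6 at 120 days. Its fetal and 3-day arrays overlapped and its change of -0.14 ± 0.12 (SE, adjusted p = 0.381) did not pass, while the arrays at 60 and 120 days all lay lower. MCM4 had 38.9, 38.9 and 46.9 in the fetus, 47.3, 53.8 and 57.1 at 3 days, 48.0, 54.6 and 46.5 at 60 days and 65.3, 65.3 and 64.4 at 120 days. Its mean was lowest in the fetus, and the change of 0.24 ± 0.10 (SE, adjusted p = 0.083) was not called. MCMBP, a protein that binds the MCM subunits, had 304, 417 and 244 in the fetus, 157, 178 and 279 at 3 days, 251, 194 and 196 at 60 days and 136, 148 and 120.3 at 120 days. Its 3-day arrays overlapped the fetal ones, and its change of -0.61 ± 0.24 (SE, adjusted p = 0.055) narrowly missed the threshold. It was called on leaving out fetal replicate 3 (adjusted p = 0.0268) or 3-day replicate 3 (0.0148). MCM6, MCM7 and CDC6 were not analysed here.

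**Figure D2:**
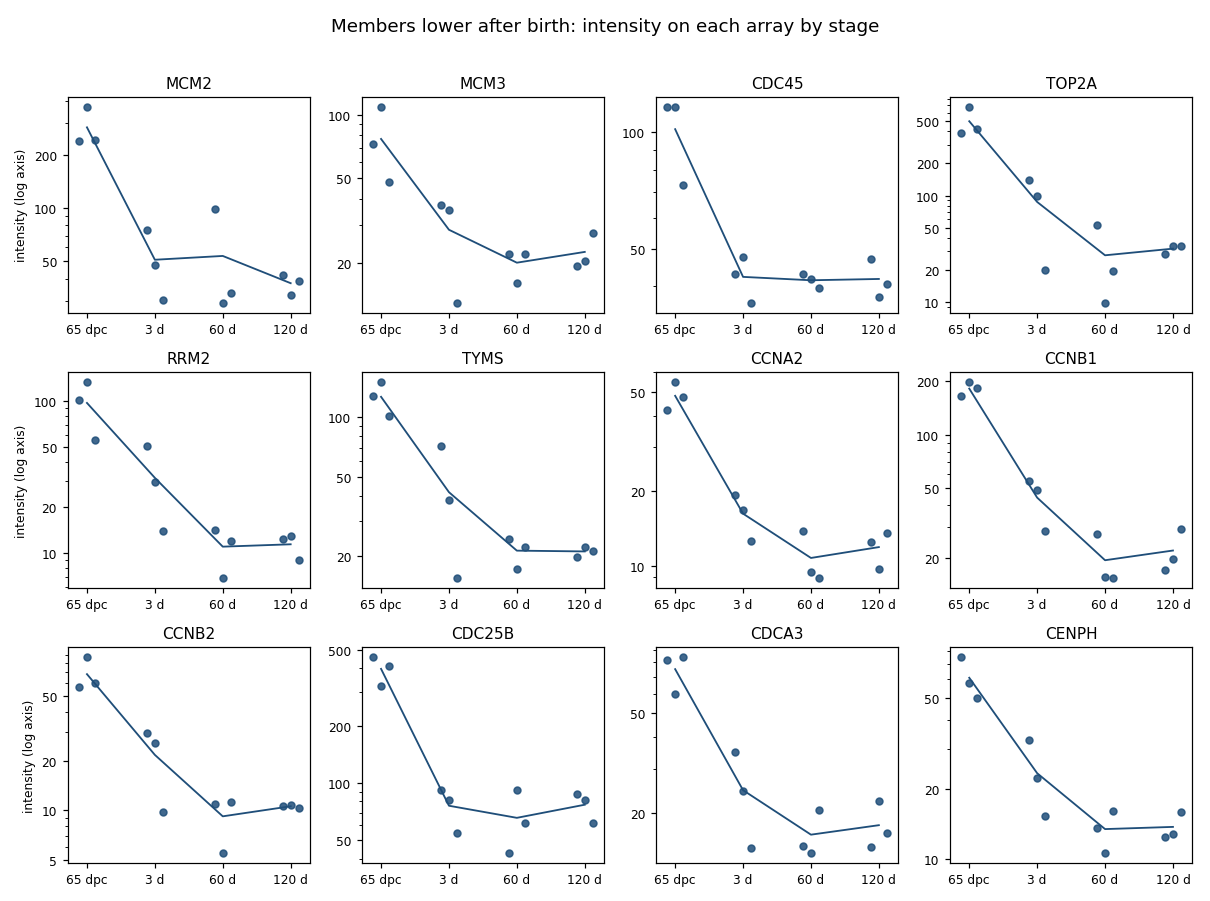
Intensity (log axis) of 12 members that were lower after birth, against stage, with 1 point per array and a line through the stage means (n = 3 arrays each). In every panel the 3 fetal arrays lie above all 9 arrays after birth. For TOP2A the 3-day arrays span 20.0 to 141.

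Members of the replication fork and of nucleotide supply included the member with the largest fall. Of 6 tested, 3 were lower at 3 days (50%, beside 22.6% of all tested probe sets) and 1 was higher (16.7%, beside 20.3%). Their median was -0.86. TOP2A, the topoisomerase that untangles replicated DNA, had intensities of 387, 682 and 424 in the fetus, 141, 100.2 and 20.0 at 3 days, 53.3, 9.92 and 19.5 at 60 days and 28.3, 33.4 and 33.9 at 120 days. Every fetal array was above every later array, but the 3-day arrays were spread widely and replicate 3 was already at the level of the later stages. The log2 change was -2.43 ± 0.44 (SE, adjusted p = 0.00111). RRM2, the small subunit of ribonucleotide reductase, had 102, 134 and 55.7 in the fetus, 50.6, 29.2 and 14.0 at 3 days, 14.2, 6.89 and 12 at 60 days and 12.4, 12.9 and 9.003 at 120 days, a change of -1.18 ± 0.26 (SE, adjusted p = 0.00364). TYMS, which makes thymidylate, had 127, 149.9 and 100.6 in the fetus, 71.7, 38.3 and 15.6 at 3 days, 24.4, 17.3 and 22.2 at 60 days and 19.7, 22.4 and 21.3 at 120 days, a change of -1.31 ± 0.25 (SE, adjusted p = 0.00163). In RRM2 and TYMS, as in TOP2A, replicate 3 was the lowest 3-day array, and every fetal array was above every later one. RRM1, the large subunit of the same reductase, had 443, 818 and 359 in the fetus, 332, 422 and 287 at 3 days, 372, 282 and 234 at 60 days and 231, 197 and 203 at 120 days, and its change of -0.54 ± 0.28 (SE, adjusted p = 0.143) was not called. PCNA, the sliding clamp of the polymerases, had 419, 644 and 244 in the fetus, 321, 309 and 256 at 3 days, 278, 157 and 198 at 60 days and 177, 178 and 163 at 120 days, and its change of -0.44 ± 0.30 (SE, adjusted p = 0.252) was not called either. In both, fetal replicate 2 was the highest of the 12 arrays, and fetal replicate 3 did not lie above all 3-day arrays. Without fetal replicate 3 both were called (adjusted p = 0.0472 for RRM1 and 0.0293 for PCNA). FEN1, the nuclease that trims Okazaki flaps, went the other way, with 52.2, 38.8 and 50.1 in the fetus, 85.3, 86.3 and 82.7 at 3 days, 44.6, 67.1 and 78.1 at 60 days and 57.5, 57.8 and 53.4 at 120 days. The 3-day arrays lay above all the others, and the change was 0.64 ± 0.15 (SE, adjusted p = 0.00452). With each array set to the level of its hybridization controls the call was lost (adjusted p = 0.054).

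Among the regulators of G1, CCND2 fell across birth and was lower again at 60 days, where its call depended on single arrays. This D-type cyclin, which couples growth signals to entry into the cycle, had intensities of 1404, 1003 and 801 in the fetus, 250.0, 271 and 171 at 3 days, 76.8, 82.2 and 91.8 at 60 days and 141, 107 and 74.2 at 120 days. All fetal arrays were above all 3-day arrays, and these were above all arrays at 60 and 120 days. Its log2 change across birth was -2.10 ± 0.26 (SE, adjusted p = 8.98e-05). RBL2, the pocket protein p130 of resting cells, had 354, 452 and 496 in the fetus, 193, 217 and 295 at 3 days, 523, 541 and 427 at 60 days and 435, 383 and 359 at 120 days, so the 3-day arrays alone were low. Its change across birth was -0.84 ± 0.21 (SE, adjusted p = 0.00728). CDK2, the kinase of S phase entry, had 78.9, 67.1 and 92.1 in the fetus, 112, 107 and 109 at 3 days, 71.7, 75.4 and 82.8 at 60 days and 78.9, 84.6 and 103 at 120 days, with the 3-day arrays above the others. Its change of 0.38 ± 0.13 (SE, adjusted p = 0.0362) was called, but the call failed on leaving out fetal replicates 1 (adjusted p = 0.0741) or 2 (0.125), 3-day replicates 1 (0.0913), 2 (0.0738) or 3 (0.0679) or 120-day replicate 2 (0.0525), and with centring on the hybridization controls (0.633). Another probe set of CDK2 fell, as given with the other probe sets. The other D cyclins, the E cyclins, CDK1, CDK4 and CDK6 were not analysed here.

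Of the 4 tested CDK inhibitors 0 were called in either direction across birth, beside 22.6% lower and 20.3% higher of all tested probe sets. CDKN1A, the inhibitor p21, had intensities of 1911, 2791 and 1349.5 in the fetus, 2467, 1162 and 1524 at 3 days, 781, 1550.2 and 1433 at 60 days and 1372, 959.7 and 598 at 120 days, and its change at 3 days was -0.24 ± 0.39 (SE, adjusted p = 0.645). CDKN1B, p27, had 309, 227 and 492 in the fetus, 270.3, 350.0 and 548 at 3 days, 303, 626 and 447 at 60 days and 439.9, 405 and 488 at 120 days, a change of 0.18 ± 0.33 (SE, adjusted p = 0.675). For both, the arrays of every stage after birth overlapped those of the fetus. CDKN2C, p18, had 63.2, 57.0 and 59.8 in the fetus, 85.9, 66.0 and 67.2 at 3 days, 69.7, 68.0 and 75.7 at 60 days and 80.6, 81.0 and 77.5 at 120 days. Its change was small and uncalled at 0.21 ± 0.11 (SE, adjusted p = 0.159), although the fetal arrays were the lowest. CDKN2D, p19, lay between 49.2 and 146 over the 12 arrays and changed by -0.27 ± 0.26 (SE, adjusted p = 0.423).

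The cyclins of S, G2 and M phase fell together, whereas both mitotic kinases that were called rose. Of 8 tested members of this group 4 were lower at 3 days (50%, beside 22.6% of all tested probe sets) and 2 were higher (25%, beside 20.3%). The group had a median of -0.40. CCNA2, cyclin A of S and G2 phase, had 42.2, 54.8 and 47.4 in the fetus, 19.3, 16.7 and 12.5 at 3 days, 13.8, 9.46 and 8.94 at 60 days and 12.5, 9.69 and 13.5 at 120 days, a change of -0.89 ± 0.10 (SE, adjusted p = 7.03e-05). CCNB1, a cyclin that drives entry into mitosis, had 164, 199 and 183 in the fetus, 54.7, 48.9 and 28.5 at 3 days, 27.4, 15.6 and 15.5 at 60 days and 17.1, 19.9 and 29.4 at 120 days, a change of -1.66 ± 0.18 (SE, adjusted p = 3.84e-05). CCNB2, the other B cyclin, had 57.2, 87.0 and 60.5 in the fetus, 29.9, 25.9 and 9.79 at 3 days, 10.9, 5.49 and 11.2 at 60 days and 10.7, 10.8 and 10.3 at 120 days, a change of -1.08 ± 0.18 (SE, adjusted p = 5.95e-04). For these 3 cyclins the fetal arrays lay above all later ones, and the means at 60 and 120 days were below the mean at 3 days. CDC25B, the phosphatase that activates cyclin-CDK complexes, had 458, 321 and 411 in the fetus, 91.6, 81.8 and 54.5 at 3 days, 42.9, 92.1 and 61.9 at 60 days and 88.0, 81.1 and 61.7 at 120 days. Its fetal arrays were far above the rest, and the later stages overlapped, with a change of -2.11 ± 0.23 (SE, adjusted p = 4.39e-05). AURKB, the Aurora kinase of the chromosomal passenger complex, had 91.0, 79.8 and 105 in the fetus, 191, 146 and 202 at 3 days, 144, 124 and 146 at 60 days and 157, 153 and 176 at 120 days. All 9 arrays after birth lay above the fetal arrays, and the change was 0.83 ± 0.16 (SE, adjusted p = 0.00163). PLK1, the Polo kinase of mitosis, had 62.0, 58.4 and 84.9 in the fetus, 117, 100.8 and 104 at 3 days, 86.8, 94.2 and 81.9 at 60 days and 99.9, 114 and 104 at 120 days. Here fetal replicate 3 reached into the range at 60 days but not into that at 3 days, and the change was 0.53 ± 0.14 (SE, adjusted p = 0.00914). With centring on the hybridization controls AURKB was still called (0.55, adjusted p = 0.0433) and PLK1 was not (adjusted p = 0.268). AURKA, the Aurora kinase of the spindle poles, had 33.4, 32.4 and 35.9 in the fetus, 38.9, 38.5 and 36.4 at 3 days, 35.7, 48.6 and 39.0 at 60 days and 34.3, 57.3 and 48.4 at 120 days, a change of 0.10 ± 0.13 (SE, adjusted p = 0.546) that was not called. CDKN3, a phosphatase that acts on CDK2, changed by 0.41 ± 0.36 (SE, adjusted p = 0.382), with intensities of 49.6 to 203 over all arrays.

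Among the proteins that attach chromosomes to the spindle, several of the kinetochore fell. Of 5 tested centromere members 3 were lower (60%, beside 22.6% of all tested probe sets) and 0 were higher (beside 20.3%), with a median of -0.49. CENPH had 75.1, 57.8 and 49.9 in the fetus, 32.7, 22.4 and 15.3 at 3 days, 13.6, 10.6 and 16.1 at 60 days and 12.5, 12.8 and 15.9 at 120 days, a change of -0.89 ± 0.15 (SE, adjusted p = 6.05e-04). CENPI had 58.7, 91.0 and 49.1 in the fetus, 19.3, 30.3 and 19.2 at 3 days, 37.3, 23.9 and 16.1 at 60 days and 25.6, 15.7 and 16.7 at 120 days, a change of -0.97 ± 0.20 (SE, adjusted p = 0.00223). CENPH and CENPI belong to the inner kinetochore, and for both the fetal arrays lay above every later array. CENPF, a large outer kinetochore protein, had 302, 384 and 349.7 in the fetus, 292, 238 and 195 at 3 days, 218, 189 and 222 at 60 days and 209.7, 203 and 245 at 120 days. The groups did not overlap, but its change of -0.49 ± 0.19 (SE, adjusted p = 0.0485) failed on leaving out fetal replicates 2 (adjusted p = 0.131) or 3 (0.0889), 3-day replicates 2 (0.107) or 3 (0.165), 60-day replicates 1 (0.0552) or 3 (0.0573) or 120-day replicates 1 (0.0679), 2 (0.0679) or 3 (0.0584). The CENPF call also failed with quantile normalization (adjusted p = 0.184), median centring (0.0512), a pseudocount of 1 (0.0511) and no filter (0.0558). It failed too with the replicate block (0.0844) and with only the 6 arrays compared (0.125). CENPB, which binds centromeric repeats, and CENPT, which links centromeric chromatin to the outer kinetochore, changed by 0.13 and 0.16 and were not called (adjusted p = 0.657 and 0.261).

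The 5 tested members of the spindle checkpoint and the anaphase-promoting complex had a median of -0.54. Of these 2 were lower (40%, beside 22.6% of all tested probe sets) and 0 higher (beside 20.3%). CDCA3, a protein that promotes entry into mitosis, had 81.7, 59.6 and 84.1 in the fetus, 34.9, 24.4 and 14.5 at 3 days, 14.7, 13.8 and 20.4 at 60 days and 14.6, 22.2 and 16.6 at 120 days, a change of -1.09 ± 0.16 (SE, adjusted p = 3.28e-04), with all fetal arrays above the rest. BUB3, of the checkpoint, had 879, 1149 and 698 in the fetus, 591, 490.1 and 670.1 at 3 days, 610.2, 464 and 555 at 60 days and 484, 449 and 435 at 120 days. Its 3-day range lay just below the fetal one, and the call at -0.60 ± 0.22 (SE, adjusted p = 0.0408) failed on leaving out fetal replicates 1 (adjusted p = 0.0786) or 2 (0.145), 3-day replicates 1 (0.0852) or 2 (0.148), 60-day replicate 3 (0.0501) or 120-day replicates 1 (0.0571), 2 (0.0595) or 3 (0.054). CDC20, the activator that the checkpoint restrains, had 307, 154 and 237 in the fetus, 168, 149 and 128 at 3 days, 123, 124 and 123 at 60 days and 134, 154 and 141 at 120 days. Fetal replicate 2 lay within the 3-day range, and the change of -0.54 ± 0.21 (SE, adjusted p = 0.051) was not called. It was called without fetal replicate 2 (-0.79, adjusted p = 0.00522). CDC23 and CDC26, subunits of the complex itself, changed by 0.33 and 0.74 (adjusted p = 0.276 and 0.103). KIF20A, a kinesin of cytokinesis, had 67.9, 94.3 and 50.8 in the fetus, 38.5, 29.8 and 23.9 at 3 days, 21.9, 18.3 and 15.2 at 60 days and 20.5, 23.6 and 24.7 at 120 days and fell by 0.81 on the log2 scale (SE 0.16, adjusted p = 0.0018), with no array after birth reaching the fetal range. KIFC1, a motor that bundles spindle microtubules, changed by 0.11 (adjusted p = 0.559).

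Members placed outside the groups above moved in both directions. Of 5 tested kinesins of transport and other roles 1 was lower (20%, beside 22.6% of all tested probe sets). KIF2A, a kinesin that takes microtubules apart, had 147, 219.8 and 129 in the fetus, 60.9, 60.4 and 63.0 at 3 days, 53.9, 47.0 and 49.6 at 60 days and 42.0, 49.9 and 50.5 at 120 days, a change of -1.15 ± 0.16 (SE, adjusted p = 2e-04), and its fetal arrays lay above all others. KIF3A, KIF5B, KIF21A and KIFAP3, of transport along microtubules, had changes of 0.09 to 0.38 that were not called. Another 13 tested members are CDKs with other roles, or proteins named for binding CDKs, and had a median of 0.17. Of these 4 were higher (30.8%, beside 20.3% of all tested probe sets) and 2 lower (15.4%, beside 22.6%).

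CDK16, a kinase of the PCTAIRE family, had 140.2, 176 and 119.7 in the fetus, 354, 374 and 305 at 3 days, 228, 227 and 248 at 60 days and 210.0, 228 and 193 at 120 days. The fetal arrays were lowest and the 3-day arrays highest, and the change was 1.15 ± 0.17 (SE, adjusted p = 3.5e-04). CDK5, known best from neurons, had 43.9, 28.3 and 37.5 in the fetus, 68.9, 66.0 and 80.7 at 3 days, 54.5, 78.6 and 60.3 at 60 days and 62.6, 60.7 and 71.0 at 120 days, a change of 0.70 ± 0.14 (SE, adjusted p = 0.00212), with every array after birth above the fetal range. CDK5RAP1, an enzyme that modifies mitochondrial transfer RNA, had 94.2, 96.7 and 74.4 in the fetus, 198, 202 and 225 at 3 days, 149.9, 192 and 105 at 60 days and 133, 120.0 and 106 at 120 days, a change of 1.07 ± 0.19 (SE, adjusted p = 9.75e-04), and its 3-day arrays were the highest. The call of CDK5 was lost with centring on the hybridization controls (adjusted p = 0.0595). CDK2AP2, a CDK2-associated protein, had 64.2, 31.3 and 88.3 in the fetus, 119.7, 147 and 216 at 3 days, 30.2, 193 and 111 at 60 days and 72.04, 80.4 and 109.7 at 120 days, with a wide spread at 60 days and with 60 days replicate 1 below every fetal array. Its change of 1.18 ± 0.43 (SE, adjusted p = 0.0439) failed on leaving out fetal replicates 1 (adjusted p = 0.0752) or 2 (0.166), 3-day replicates 1 (0.0548), 2 (0.0818) or 3 (0.13), 60-day replicate 3 (0.0534) or 120-day replicates 1 (0.0562), 2 (0.0576) or 3 (0.053), and with that centring (0.092). CDK2AP1, its relative, had 1446, 1209 and 799 in the fetus, 736, 775 and 702 at 3 days, 607, 585 and 708 at 60 days and 724, 653 and 683 at 120 days. The fetal arrays were all above the 3-day ones, but the change of -0.59 ± 0.22 (SE, adjusted p = 0.0444) failed on leaving out fetal replicates 1 (adjusted p = 0.171) or 2 (0.11), 3-day replicates 1 (0.0982), 2 (0.0813) or 3 (0.099), 60-day replicate 3 (0.05) or 120-day replicates 1 (0.062), 2 (0.0631) or 3 (0.0591). CDK9, the kinase of transcript elongation, had 251, 237 and 253 in the fetus, 128, 129 and 212 at 3 days, 158, 232 and 206 at 60 days and 221, 199 and 167 at 120 days. Its arrays at 3 days were below the fetal ones, and its change of -0.63 ± 0.21 (SE, adjusted p = 0.0298) failed on leaving out fetal replicates 1 (adjusted p = 0.0673), 2 (0.055) or 3 (0.0601) or 3-day replicates 1 (0.113) or 2 (0.112). The others of these 13, among them CDK7, which activates cell cycle CDKs, and CDK10, CDK11B and CDK13, were not called.

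The 10 remaining tested members, a mixed group that the start of the name brought in, had a median of 0.63. Of these 5 were higher (50%, beside 20.3% of all tested probe sets) and 3 lower (30%, beside 22.6%). CDC34, a ubiquitin-conjugating enzyme that works with SCF ligases and is needed for entry into S phase in yeast, had 333, 294 and 370.1 in the fetus, 1198, 1161 and 1044 at 3 days, 1016, 1012 and 1607 at 60 days and 2177, 2007 and 2049 at 120 days. All arrays after birth were above all fetal arrays, and the 120-day arrays were above all others, with a change across birth of 1.71 ± 0.21 (SE, adjusted p = 8.23e-05). CDC37L1, a relative of the kinase co-chaperone CDC37, had 161, 201 and 129 in the fetus, 878, 576 and 415 at 3 days, 819.8, 349 and 593 at 60 days and 730.2, 682 and 587 at 120 days, a change of 1.76 ± 0.32 (SE, adjusted p = 0.00115), and the fetal arrays again lay below the rest. CDC37 itself rose by 0.82 (SE 0.19, adjusted p = 0.00436), CDC123, a factor for assembly of translation initiation factor eIF2, by 0.65 (SE 0.17, adjusted p = 0.00924) and PLK3, a Polo-like kinase of stress responses, by 0.62 (SE 0.13, adjusted p = 0.0032). Of these, CDC123 and PLK3 were not called with centring on the hybridization controls (adjusted p = 0.133 and 0.109). The 3 that fell were CDCA7L, PLK2 and CDC5L. CDCA7L, a nuclear protein that binds MYC, had 217, 340.3 and 213 in the fetus, 115, 90.1 and 88.1 at 3 days, 90.3, 58.2 and 88.2 at 60 days and 60.6, 45.4 and 50.0 at 120 days, a change of -1.20 ± 0.20 (SE, adjusted p = 6.36e-04). PLK2, another stress-responsive Polo-like kinase, had 124, 203 and 111 in the fetus, 90.9, 46.8 and 45.8 at 3 days, 63.2, 59.2 and 63.9 at 60 days and 29.8, 43.8 and 35.1 at 120 days, a change of -1.03 ± 0.22 (SE, adjusted p = 0.00342). CDC5L, a splicing factor, had 532, 616 and 704 in the fetus, 288, 378 and 388 at 3 days, 478, 468 and 329 at 60 days and 359, 272 and 384 at 120 days, and its change of -0.78 ± 0.22 (SE, adjusted p = 0.0135) lost its call without 3 days replicate 1 (adjusted p = 0.0614) and with the mean of its probe sets (-0.36, adjusted p = 0.127). For all 3 the fetal arrays lay above the 3-day arrays.

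**Figure D3:**
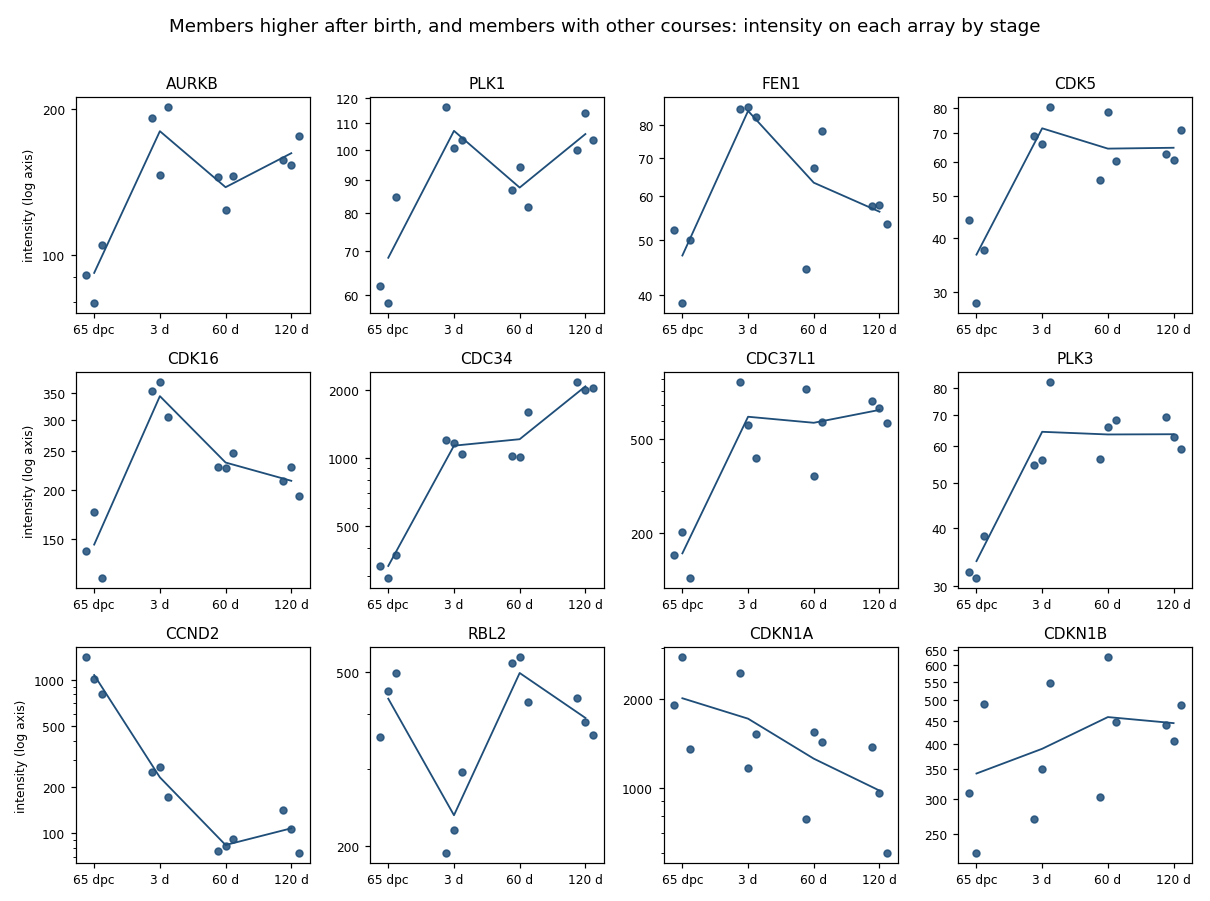
Intensity (log axis) of 12 further members against stage, with 1 point per array and a line through the stage means (n = 3 arrays each). AURKB, CDK5, CDC34, CDC37L1 and PLK3 have all arrays after birth above the fetal arrays, RBL2 is low on the 3-day arrays (193 to 295), CCND2 falls again after 3 days, and CDKN1A and CDKN1B overlap between stages.

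Probe sets of the same symbol did not always move together, among members that fell as well as among those that rose. Of the 18 symbols with several probe sets 14 had at least 2 that were tested, and across birth 2 of them were called in 1 direction on every tested probe set, 9 on some and not on others, 1 in opposite directions and 3 on none. CDK2, the symbol called in opposite directions, is also among the 9, since a further probe set of it was not called. MCM2 was lower on all 3 of its probe sets, with log2 changes of -2.11 to -0.35, and CDC37L1 was higher on both of its own (1.76 and 1.92). For CDK2, a second probe set had 179, 160.3 and 117 in the fetus, 79.9, 69.5 and 104 at 3 days, 65.8, 48.1 and 46.4 at 60 days and 50.9, 50.4 and 46.8 at 120 days. It fell across birth by 0.71 (SE 0.17, adjusted p = 0.00563), with the fetal arrays above all others, while the chosen probe set rose and the remaining one was not called. FEN1 had a second probe set with a change of -0.26 (adjusted p = 0.103), against 0.64 on the chosen one. The second probe set of AURKA fell by 0.36 (adjusted p = 0.023), while the chosen one was not called. For MCM4 the second probe set changed by -0.30 (adjusted p = 0.109), and for MCM5 another of its 3, at 16.5 to 43.5 over the arrays, rose by 0.43 (adjusted p = 0.0326). KIF3A was uncalled on its chosen probe set, and on 2 others it fell by 0.55 and 0.65 (adjusted p = 0.0263 and 0.00356). CDK13 rose by 0.36 on its second probe set (adjusted p = 0.0127). CDK16 rose on 2 of 3. Of the members given above as lower, CDC45 had a second probe set with a change of -0.20 (adjusted p = 0.145), against -0.94 on the chosen one, and was still called with the mean of both (-0.57, adjusted p = 0.00116). The second probe set of CDC5L changed by 0.06 (adjusted p = 0.822), against -0.78 on the chosen one. Which probe set follows the gene was not tested, and transcript variants and cross-hybridization cannot be told apart here.

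**Figure D4:**
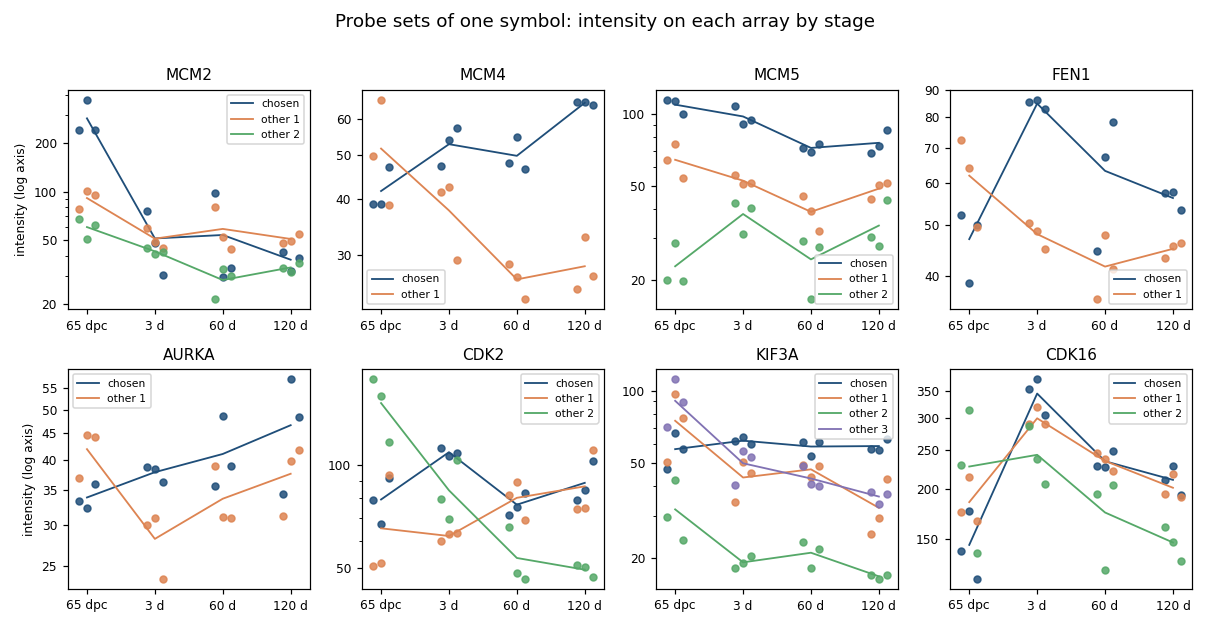
Intensity (log axis) of every probe set of 8 symbols with several, against stage, with 1 point per array and lines through the stage means (n = 3 arrays each). The probe set used for the symbol is named chosen. All 3 probe sets of MCM2 are lower at 3 days than in the fetus, while those of CDK2, MCM4, FEN1 and AURKA run apart.

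Few members were called between the stages after birth. Between 3 and 60 days 1 of 67 was lower at 60 days (1.49%, beside 0.742% of all tested probe sets) and 1 was higher (1.49%, beside 0.786%). CCND2 fell further, by 1.25 on the log2 scale (SE 0.26, adjusted p = 0.034), to a mean of 83.6 ± 7.59 at 60 days, against 231 ± 52.9 at 3 days (SD, n = 3 each). RBL2 rose by 1.03 (SE 0.21, adjusted p = 0.0332), to a mean of 497 ± 61.3 at 60 days, against 235 ± 53.5 at 3 days. In neither gene did the arrays of the 2 stages overlap. The call of CCND2 failed on leaving out 3-day replicates 1 (adjusted p = 0.138) or 2 (0.134), 60-day replicates 1 (0.107), 2 (0.0698) or 3 (0.0592) or 120-day replicate 2 (0.0622). That of RBL2 failed on leaving out 3-day replicates 1 (adjusted p = 0.146) or 2 (0.126), 60-day replicates 1 (0.099) or 2 (0.0708) or 120-day replicates 1 (0.0548) or 2 (0.0622), and with centring on the hybridization controls (0.0842). Without 3 days replicate 3, which was the lowest 3-day array for 19 of the 24 members that fell across birth, 4 members were called lower at 60 days, beside 0.903% of all tested probe sets. Between 60 and 120 days 0 members were called lower and 0 higher by limma, beside 0% of all tested probe sets in each direction. At an unadjusted p under 0.05 there were 5 of 67 members and 1021 of 16166 probe sets.

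Over the whole time after birth, 120 against 3 days, 0 members were called lower (beside 2.12% of all tested probe sets) and 1 was called higher (1.49%, beside 2.29%). At an unadjusted p under 0.05 there were 18 of 67 members (26.9%) and 3143 of 16166 probe sets (19.4%). Without 3 days replicate 3, 5 members were called lower, beside 1.63% of all tested probe sets. The member called was CDC34, which averaged 2077 ± 88.8 at 120 days and 1135 ± 80.6 at 3 days (SD, n = 3 each), a log2 change of 0.86 ± 0.21 (SE, adjusted p = 0.0365). Its call failed on leaving out fetal replicate 1 (adjusted p = 0.0531), 3-day replicates 1 (0.0848), 2 (0.102) or 3 (0.0966) or 120-day replicates 1 (0.151), 2 (0.123) or 3 (0.0866), and with centring on the hybridization controls (0.0606). CCND2 narrowly missed the threshold in the other direction, at -0.98 ± 0.26 (SE, adjusted p = 0.0509). The B cyclin CCNB1 changed by -0.58 ± 0.18 (SE, adjusted p = 0.0881), and TOP2A by -0.82 ± 0.44 (SE, adjusted p = 0.347). For CCNB1 and TOP2A the arrays at 120 days overlapped those at 3 days, while for CCND2 they did not.

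Set against the fetus, muscle at 120 days had lower transcript levels for most of the replication group. This comparison shares its fetal arrays with that at 3 days, so the counts are not independent of it. Of 67 members 28 were lower (41.8%, beside 25% of all tested probe sets) and 14 were higher (20.9%, beside 23.4%). With centring on the hybridization controls 34 were lower, beside 44.1% of all tested probe sets, and 3 were higher, beside 7.40%, so that the members' lower share lay closer to that of all probe sets. The median log2 change over the 28 was -1.17, and their medians over the 3 steps were -0.96, -0.23 and 0.018. On 14 of these 28 all 120-day arrays were below the lowest array median of 49.1, so their change is smaller on this scale than as a ratio. The helicase group had 5 lower and 1 higher of 6, and the fork and nucleotide group 5 lower and 0 higher of 6. The S, G2 and M group had 4 lower and 2 higher of 8, the centromere group 3 lower of 5 and the checkpoint group 3 lower and 1 higher of 5.

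TOP2A had the largest fall in this comparison, at 31.8 ± 3.08 in 120-day muscle and 497 ± 161 in the fetus (SD, n = 3 each), a log2 change of -3.25 ± 0.44 (SE, adjusted p = 1.24e-04). CCND2 averaged 107 ± 33.6 at 120 days and 1069.5 ± 307 in the fetus, a change of -3.08 ± 0.26 (SE, adjusted p = 4.21e-06). MCM2 changed by -2.36 ± 0.31 (SE, adjusted p = 1.07e-04) and CCNB1 by -2.24 ± 0.18 (SE, adjusted p = 3.35e-06). In all 4 genes the arrays of the 2 stages did not overlap. PCNA (-1.14 ± 0.30, adjusted p = 0.00748), RRM1 (-1.20 ± 0.28, adjusted p = 0.00441) and MCMBP (-1.11 ± 0.24, adjusted p = 0.00237), which had not been called at 3 days, were lower at 120 days, with no overlap between the arrays. MCM5 was lower too (-0.44 ± 0.12, adjusted p = 0.0112), a call lost without 120 days replicate 1 (adjusted p = 0.0509) and with quantile normalization (0.0513). It was also lost with the mean of its probe sets (-0.13, adjusted p = 0.355), and its most variable probe set changed by 0.32 (adjusted p = 0.0886). CDC20 was called lower at -0.59 ± 0.21 (SE, adjusted p = 0.0341), although a fetal array lay within the 120-day range, and its call failed on leaving out fetal replicates 1 (adjusted p = 0.141) or 3 (0.0755) or 120-day replicates 1 (0.0945), 2 (0.06) or 3 (0.082). MCM4 was the exception in its group, with 0.46 ± 0.10 (SE, adjusted p = 0.00319). Its second probe set fell (-0.54, adjusted p = 0.0078), and with centring on the hybridization controls the call of the chosen one was lost (adjusted p = 0.876).

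Of the CDK inhibitors, CDKN1A was lower at 120 days, at 976 ± 387 against 2017 ± 727 in the fetus (SD, n = 3 each), a change of -1.05 ± 0.39 (SE, adjusted p = 0.0409). The arrays overlapped, and the call failed on leaving out fetal replicates 1 (adjusted p = 0.0828) or 2 (0.153) or 120-day replicates 2 (0.0821) or 3 (0.168). CDKN2C was slightly higher at 0.31 ± 0.11 (SE, adjusted p = 0.0386), a call that failed on leaving out fetal replicates 1 (adjusted p = 0.0569), 2 (0.0929) or 3 (0.069) or 120-day replicates 1 (0.0911), 2 (0.0997) or 3 (0.0726). With centring on the hybridization controls its change turned to -0.12 (adjusted p = 0.525). RBL2, which was lower than in the fetus at 3 days, had a change of -0.13 ± 0.21 (SE, adjusted p = 0.632) that was not called. Among the members that were higher, CDC34 had the largest change at 2.57 ± 0.21 (SE, adjusted p = 3.5e-06), and CDC37L1 had 1.91 ± 0.32 (SE, adjusted p = 5.04e-04). AURKB and PLK1 stayed above the fetus by 0.70 and 0.51 (adjusted p = 0.00348 and 0.00881), KIFAP3, an adaptor of kinesin-2, by 0.86 (adjusted p = 0.0114) and KIF21A by 0.55 (adjusted p = 0.00444). All 4 of these calls were lost with centring on the hybridization controls (adjusted p = 0.28, 0.71, 0.181 and 0.576). CDC26 was higher by 0.90 (adjusted p = 0.0467), a call that failed on leaving out fetal replicates 1 (adjusted p = 0.0652) or 2 (0.183), 3-day replicates 1 (0.0539) or 2 (0.0595), 60-day replicate 3 (0.0573) or 120-day replicates 1 (0.0825), 2 (0.0702) or 3 (0.141), and with that centring (0.255).

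**Figure D5:**
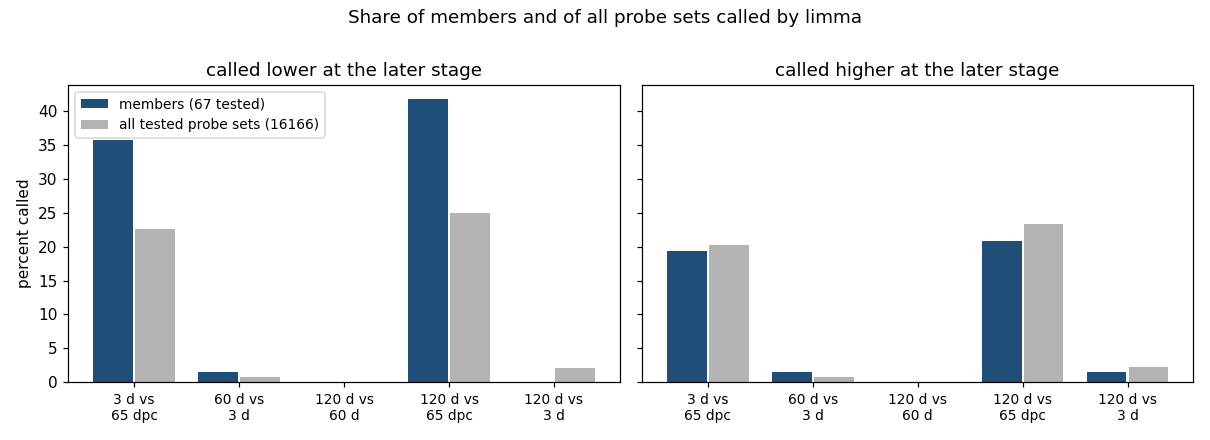
Percent of the 67 tested members, and of all 16166 tested probe sets, called lower (left) and higher (right) at the later stage in each of 5 comparisons. For members the lower share is 35.8% at 3 days and 41.8% at 120 days against the fetus, and the higher shares lie at 19.4% and 20.9%.

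Genes of the same processes that the naming rule did not reach were counted from lists of their own. From 65 dpc to 3 days 22.6% of all tested probe sets were called lower and 20.3% higher. Of 13 other tested mitotic genes 10 were lower and 0 higher at 3 days than in the fetus. They included NUSAP1, which bundles spindle microtubules (-2.18 ± 0.35), STMN1, which destabilises microtubules (-1.83 ± 0.32), UBE2C, the ubiquitin-conjugating enzyme of the anaphase-promoting complex (-1.72 ± 0.28), and RACGAP1, of cytokinesis (-1.64 ± 0.28). Of 14 other fork genes 8 were lower and 0 higher, with DNMT1, the maintenance DNA methyltransferase, at -1.21 (adjusted p = 0.00231). DNMT1 went on falling after birth, by 1.45 at 120 against 3 days (adjusted p = 0.00795). Of 9 other origin genes 4 were lower and 1 higher, with ORC1, of the origin recognition complex, at -0.91 (adjusted p = 2.23e-04). Of 7 genes of cohesin, condensin and chromatin 4 were lower and 0 higher, with LMNB1, lamin B1, at -2.00 and HMGB2 at -1.28. The other lists were mixed. Of 11 checkpoint and p53 pathway genes 3 were lower (27.3%) and 2 higher (18.2%), near the shares of all tested probe sets. Of 4 other genes of nucleotide supply 0 were lower and 2 higher. These 2 were RRM2B, the p53-induced reductase subunit used outside S phase (1.10, adjusted p = 0.012), and DCTPP1 (0.99, adjusted p = 0.0378). RRM2B thus rose where RRM2 fell. Of 7 RB, E2F and MYB regulators 1 was lower and 1 higher (14.3% each), below the shares of all tested probe sets. MYBL2, the B-MYB factor of late cell cycle genes, fell (-1.04, adjusted p = 0.00299), and FOXM1, its partner in G2 and mitosis, rose (0.43, adjusted p = 0.0127). Whether the calls of these list genes hold with an array left out or with centring on the hybridization controls was not tested.

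Markers of other cell types moved over the same step, at which 22.6% of all tested probe sets were called lower and 20.3% higher. Of 9 tested fibroblast and matrix markers 7 were lower and 0 higher at 3 days, and their summed intensity was 3436 to 5976 at 3 days and 13703 to 22541 in the fetus. Of 6 tested myoblast and satellite cell markers 4 were lower and 0 higher (NCAM1, MYF5, VCAM1 and CD34), and the sum over the 7 measured was 2210 to 4389 at 3 days and 3512 to 5289 in the fetus. Of 8 endothelial markers 1 was lower and 1 higher (sums of 1503 to 1562 at 3 days and 1699 to 3178 in the fetus). Of 11 fibre markers 9 were higher and 0 lower, and of 5 adipocyte markers 4 were higher and 0 lower (sums of 1881 to 2244 at 3 days and 557 to 844 in the fetus). Of 4 erythroid markers 1 was lower and 1 higher (sums of 1056 to 1504 at 3 days and 965 to 1647 in the fetus), and of 6 tested immune markers 0 were called, with sums of 435 to 905 at 3 days and 284 to 1935 in the fetus. None of the measured markers was listed at 0 on any array. The part of these cell types in the members' changes was not tested.

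Over the members called across birth, arrays of 1 stage also differed from each other. Among the 24 members that fell across birth, fetal replicate 2 was the highest fetal array for 15, 3 days replicate 1 the highest and replicate 3 the lowest 3-day array for 15 and 19, and 60 days replicate 1 the highest 60-day array for 14. Among the 13 that rose, fetal replicate 2 was the lowest fetal array for 10. These members were picked by their call, and the order of the arrays was not counted over all tested probe sets. Without both fetal replicate 2 and 60 days replicate 1, an alternative chosen after seeing the data, 22 members were lower at 3 days, beside 19.3% of all tested probe sets, and 13 were higher, beside 17.1%. Hybridization controls, which are added to each sample, had mean log2 values of 9.85 to 10.19 on the arrays after birth and 9.66 to 9.70 on the fetal ones. Centred on them, the median change of all tested probe sets was -0.28 at 3 days and -0.43 at 120 days against the fetus. With that shift 28 members were lower at 3 days, beside 32.7% of all tested probe sets, and 6 were higher, beside 7.81%. The helicase group then had 4 of 6 lower, the fork and nucleotide group 4 of 6, and the S, G2 and M group 4 of 8. The 6 still called higher were CDC34, CDC37L1, CDK16, CDK5RAP1, CDC37 and AURKB. Whether the scale of the arrays or the RNA of the tissue differs between the fetus and later stages cannot be told apart.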

How the data were processed

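Total RNA of 12 longissimus dorsi samples was hybridised to Affymetrix porcine arrays, 1 per sample. The deposited files hold linear intensities for every probe set, made with GCOS 1.4 per the submitters' processing notes. How background and scale were set was not given in the sources used here. The 12 medians lay between 49.1 and 52.6, and no further normalization was applied.

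Of 24123 probe sets 124 controls were left out. Values were taken as log2(intensity + 21), where 21 is their 25th percentile, and 16166 probe sets (67.4%) passed the filter. Symbols came from a 2016 platform annotation, and all 71 members matched the RefSeq gene table by Entrez ID with 0 symbols changed. All arrays entered 1 limma fit with a mean per stage and a variance trend (residual df 8, prior df 4.26). Its two-sided p-values were adjusted by Benjamini and Hochberg's method over all 16166 probe sets. The number of arrays limits the precision. In simulated data with independent normal noise and no other stage effect, 100 probe sets were changed 2-fold and 100 were changed 4-fold at 3 days. These folds were on the scale with 21 added. Over 16166 probe sets the fit recovered 63% of the 2-fold and 96% of the 4-fold changes, with 8 false calls. In the real data 20.3% were called higher and 22.6% lower, so these rates do not give the sensitivity there.

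The members, the role groups, the 7 lists of related genes and the 7 marker lists were chosen with earlier results of these data known. Named by rule were a set list of well-known cycle genes, up to 4 called members per role group and comparison with the largest change, those called against most of their group, those with probe sets called in opposite directions, and up to 4 called genes per other list and comparison. Any further member named was picked after its values were seen. Alternatives covered the pseudocount, filter, normalization, variance model, probe set choice, arrays fitted and replicate block. They were worked out for the members and not for the genes of the other lists. Same-numbered arrays of different stages had deviations correlated from -0.42 to 0.30. Differently numbered arrays were not compared, so this range cannot show whether the numbers mark pairs. The main fit did not take them as pairs. Promoters and proteins were not analysed here. The fits ran in R 4.3.3 (limma 3.58.1, with data.table, version 1.17.8, for input) and the figures in Python 3.11.15 (pandas 2.3.3, matplotlib 3.10.9).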

Additional observations from a re-analysis of the deposited data

How the results depend on the processing

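With at least 2-fold required, 5 members were higher and 12 lower at 3 days against 65 dpc, beside 5.98% and 9.76% of all tested probe sets. Under this minimum 2 were higher at 120 days against 65 dpc (beside 7.56%) and 0 at 120 against 3 days (beside 1.08%). Centred on the hybridization controls, those higher numbered 6, 3 and 0 in these comparisons (beside 7.81%, 7.40% and 1.15% of all tested probe sets) and 0 at 60 against 3 days (beside 0.402%), and 6 were lower at 120 against 3 days (beside 3.61%). The filter at the 60th percentile left 9 higher at 120 days against 65 dpc, beside 22.7% of the 11406 probe sets then tested. At 60 against 3 days, 0 were higher with the replicate block (the number as a block), 0 were higher and 0 lower with only the 6 arrays compared or without fetal replicate 2 and 60 days replicate 1 together, an omission chosen after seeing the data, and 5 were lower with array weights, beside 2.77% of all tested probe sets against 0.742% as reported. Of all tested probe sets 0.544% were higher with the replicate block. Higher and lower shares were 0.161% and 0.0804% with only the 6 arrays, and 0.396% and 0.291% without that pair. At 120 against 3 days, where 1 was higher and 0 lower, the counts higher and lower were 9 and 22 with array weights, 2 and 8 with only the 6 arrays, 2 and 5 without that pair of arrays, 2 and 3 without a variance trend, and 0 and 1 with the replicate block. The shares of all tested probe sets moved too, to 14.9% and 14.6% with array weights, 4.78% and 4.65% with only the 6 arrays, 3.53% and 3.56% without that pair, 2.37% and 2.22% without a trend and 1.76% and 1.68% with the replicate block, from 2.29% and 2.12% as reported. In that comparison 3 were lower with quantile normalization (beside 2.52%) and with the 60th percentile filter (beside 2.89%). With pseudocounts of 1 or 51 or a robust variance 1 was lower (beside 2.25%, 2.08% and 2.15%). The causes were not tested.

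Leaving out 1 array in turn gave 11 to 13 higher and 20 to 25 lower at 3 days against 65 dpc, 11 to 17 and 24 to 29 at 120 days against 65 dpc, 0 to 1 and 0 to 4 at 60 against 3 days, 0 to 2 and 0 to 5 at 120 against 3 days, and 0 in both directions at 120 against 60 days. The shares of all tested probe sets called higher and lower varied too. Against 65 dpc they were 15.2% to 21.2% and 18.0% to 23.3% at 3 days. At 120 days against 65 dpc they were 18.3% to 24.5% and 20.7% to 25.6%. Those at 60 against 3 days were 0.210% to 0.959% and 0.210% to 0.903%. For 120 against 3 days they were 0.619% to 2.83% and 0.544% to 2.61%. The F test called 35 to 45 members, beside 37.2% to 48.3% of all tested probe sets. Calls held in all 12 such fits for 30 of 37 members at 3 days and 33 of 42 at 120 days against 65 dpc, and in all other alternatives, the 2-fold minimum included, for 16 and 22. Members called as reported changed sign in 6 cases. CDK2 at 3 days turned to -0.117 with the mean of its probe sets and -0.713 with the most variable one. At 120 days against 65 dpc MCM4 turned to -0.0396 and -0.54 under the same settings, MCM5 to 0.321 with the most variable one, and CDKN2C to -0.118 with centring on the hybridization controls. Sign changes of members not called were not counted. With the most variable probe set AURKA, KIF3A and MCM5 turned at 3 days, to -0.356, -0.649 and 0.429. Dim signal limits some values, since 12 of the 67 tested members had a mean under the overall median of 50.6.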

Other observations

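GADD45A, a growth arrest gene of the p53 pathway list, had intensities of 177, 149 and 2814 on the 3-day arrays, where replicate 3 stood alone. It was singled out after its values were seen. At 60 days, replicate 2 was the highest array for CDK7 (68.7, 153 and 60.2 on replicates 1, 2 and 3), CENPB (58.7, 144 and 84.9) and CDKN2D (50.8, 146 and 73.5), which were picked in the same way.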
